A study of Mus musculus with 12 samples.

Results

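The difference between 92Q and wild-type mouse cerebellum was followed from 12 to 29 weeks of age, gene by gene. For each gene the log2 ratio of 92Q to wild type at 12 weeks was subtracted from the same ratio at 29 weeks, and the result is called the change below. A gene was compared when its value was 10 or more in all 4 conditions, which 7066 of 7667 named genes met; the other 601 were under that minimum in one or more conditions. The choice of genes used their level alone, but the classes below were cut from the ratios themselves, so class values are a description.

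The study took total RNA from cerebellum of fxSCA7 92Q mice and from wild-type littermates with a repeat of normal length. The 92Q mice are a model of spinocerebellar ataxia type 7 and carry an Atxn7 sequence with a repeat of 92 CAG units. There were 4 conditions: wild type at 12 weeks, 92Q at 12 weeks, wild type at 29 weeks and 92Q at 29 weeks. Each was sampled as 3 libraries, and each library pooled the cerebella of 3 mice. All animals lived under standard colony conditions, and no treatment is listed. The sources used here do not name the promoter or copy number of the 92Q allele or the cells that express it, and Atxn7 was not analysed here. The deposited tables hold 1 whole-number normalized score per gene and condition, without a stated unit. Every value below is such a score, so there is no replicate check, no test, and read depth is unknown. Higher and lower describe 4 values alone.

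Ataxin-7, the protein of the Atxn7 gene, is a subunit of SAGA, a complex that acetylates histones at genes, and an expanded CAG repeat lengthens its polyglutamine stretch. Purkinje cells, the output neurons of the cerebellar cortex, are among the cells that degenerate in this ataxia. They depend on a signalling chain that runs from the glutamate receptor mGluR1 through G proteins and phospholipase C to calcium release from internal stores. Microglia are the resident immune cells of the brain and make the first components of complement, and astrocytes raise the filament protein Gfap in many injuries.

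The 4 columns were alike in their middle values, with a median of 22 in each, but some genes that vary between dissections and litters stood apart. Xist, the RNA that silences an X chromosome in female cells, was 66 in wild type and 30 in 92Q at 12 weeks, and 63 and 25 at 29 weeks. The Y-linked genes Eif2s3y (0, 12, 6 and 15 in wild type and 92Q at 12 weeks, then wild type and 92Q at 29 weeks) and Ddx3y (0, 9, 5 and 11) ran the other way. Sex-linked transcripts thus moved with genotype at both ages. Sex and genotype cannot be told apart in these pools, for these or for other genes. Both Y-linked genes were also higher in old than in young wild type, so the limit holds for the change too. Ttr, the defining transcript of choroid plexus, was 336, 6, 445 and 1403 in the same order. It was low in 92Q at 12 weeks and high in 92Q at 29 weeks, so its difference changed sign between ages. Purkinje and granule cell markers were present in every column, which fits the labelled tissue.

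At 12 weeks 78 genes differed between genotypes by 1.2-fold or more (1.1% of 7066), 10 higher in 92Q (0.142%) and 68 lower (0.962%). At 29 weeks 371 did (5.25%), 174 higher (2.46%) and 197 lower (2.79%). The change itself reached 1.2-fold in 490 genes (6.93%). It was positive, meaning that 92Q gained on wild type with age, in 351 (4.97%) and negative in 139 (1.97%). That balance depends on scaling: 71.6% of the changed genes were positive with the values as deposited, 53.9% after upper quartile scaling, 58.2% after scaling by median ratios and 49.5% after centring on genes of like transcript length. At 1.5-fold 29 changes were positive (0.41%) and 9 negative (0.127%). The median change over all genes was 0.00 on the log2 scale and its SD over genes was 0.16.

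A gene counted as different at an age when its log2 ratio reached 0.263, which is 1.2-fold. By this measure 18 genes were early and stable (0.255%), 3 higher (0.0425%) and 15 lower (0.212%): different at both ages in the same direction, with a change under 1.2-fold. Another 17 were early and growing (0.241%), and all of these were lower in 92Q. There were 208 late genes (2.94%), different at 29 weeks only and with a change of 1.2-fold or more, of which 122 were higher (1.73%) and 86 lower (1.22%). A further 25 were early and shrinking (0.354%), and 7 reversed their sign (0.0991%). In 132 genes a difference passed at a single age without a change of that size (1.87%), and 6659 differed at neither age (94.2%). Rounding to whole numbers matters at this fold. Moving every value by 0.5 left the class intact in 10 of the 17 growing genes, 5 of the 18 stable genes, 47 of the 122 late higher genes and 37 of the 86 late lower genes; these are called firm below.

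**Figure D1:**
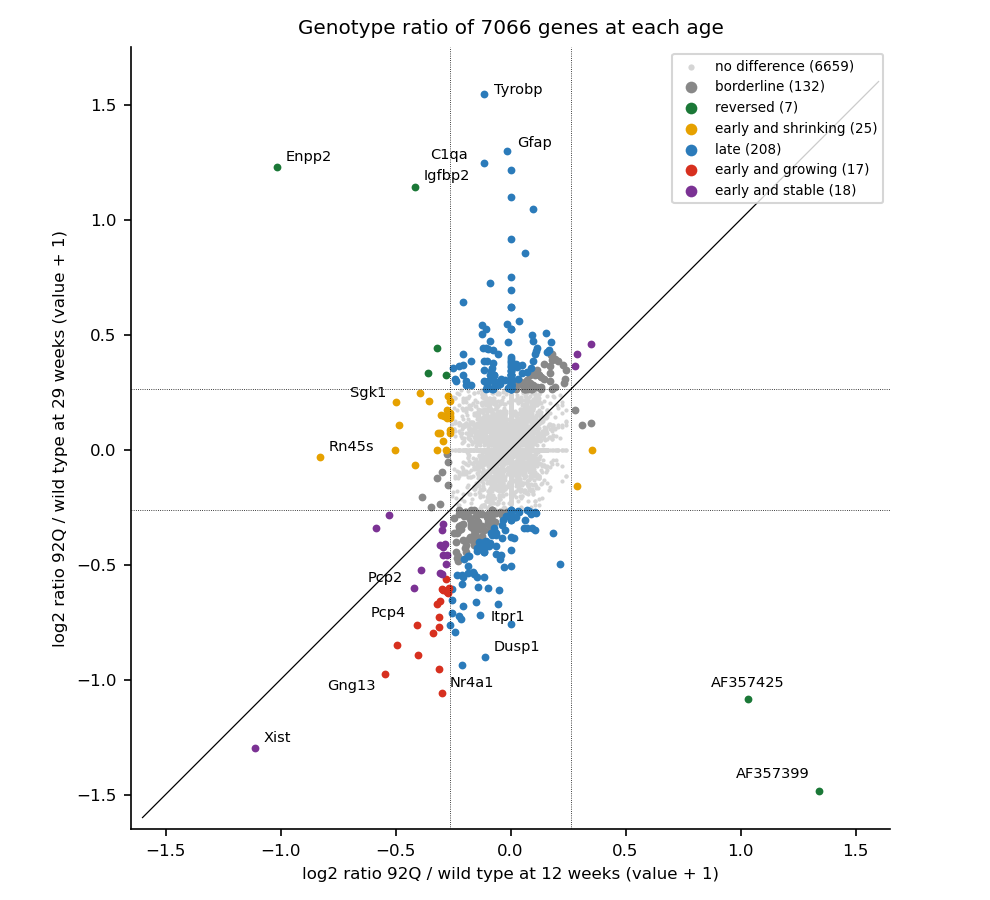
Log2 ratio of 92Q to wild type for each of 7066 genes at 12 weeks (horizontal axis) and at 29 weeks (vertical axis), colored by class, with dotted lines at 1.2-fold and a solid line where both ages are equal. Growing genes (red) lie below the solid line at the lower left, and the late genes (blue) form an upper and a lower band near 0 on the 12-week axis, the upper one reaching 1.55 at Tyrobp.

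The early and growing genes were lower in 92Q at 12 weeks and lower still at 29 weeks. Across the 17 genes, 92Q stood at 68.6% to 82.9% of wild type at 12 weeks (median 80.0%) and at 45.8% to 67.2% at 29 weeks (median 60.2%). In all 17 the 29-week 92Q column held the lowest of the 4 values. Of these genes 7 are on the list of 39 compared Purkinje cell markers. On the list of 42 compared genes of calcium and mGluR1 signalling there are 5, and 9 are on one or both lists. Of all 7066 compared genes 73 are on one or both, and 6 of the 17 growing genes are on no list. The lists, here and below, were chosen with earlier results of these data known, so such counts are a description. In these bulk samples, fewer cells of a type and less RNA per cell cannot be told apart.

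Gng13, the gamma subunit of a heterotrimeric G protein (chr17:25717171-25719406 on the plus strand, mm10), was 935 in wild type and 641 in 92Q at 12 weeks, and 759 and 386 at 29 weeks. Its log2 ratio went from -0.54 to -0.97, a change of -0.43. Wild type itself was lower at 29 than at 12 weeks, but the step within 92Q was larger, and both 92Q values lay under both wild-type values. Pcp4, a small regulator of calmodulin (chr16:96467606-96525793, plus strand), was 1749 and 1318 at 12 weeks and 1432 and 843 at 29 weeks, a change of -0.36. Calb1, the calcium buffer calbindin (chr4:15881264-15908064, plus strand), was 426 and 347, then 356 and 233, a change of -0.31. For Calb1 the 12-week 92Q value and the 29-week wild-type value were close, so the 12-week difference was about the size of the wild-type age step.

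Other members act at the Purkinje synapse and on inositol phosphates. Homer3, a scaffold that ties mGluR1 to its effectors, was 166 and 137 at 12 weeks and 145 and 94 at 29 weeks (change -0.34). Itpka, the kinase that phosphorylates inositol trisphosphate, was 35 and 28, then 28 and 16 (-0.46). Inpp5a, the phosphatase that removes a phosphate from the same messenger, was 205 and 170, then 181 and 119 (-0.33). These 2 enzymes, which both act on inositol trisphosphate, were thus among the growing genes, though the class of Inpp5a was not firm. Grid2ip, a synaptic scaffold gene, was 30 and 24, then 30 and 15. Its change of -0.64 was the largest negative change of the class apart from Nr4a1, whose pattern differed and is described with the immediate early genes.

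Further members were Fam107b (73 and 55, then 64 and 34, change -0.49), Cep76, Sbk1, Gm5083, Kctd12, Tuba8, Atl2 and Icmt. Their changes ran from -0.28 for Atl2 to -0.49 for Fam107b. Sbk1, a protein kinase gene, was 271 and 218 at 12 weeks and 244 and 147 at 29 weeks (change -0.41). Icmt, which methylates prenylated proteins, was 121 and 100, then 107 and 69 (-0.35). In 16 of the 17 growing genes the single column that stood apart was 92Q at 29 weeks, on the low side. A column was said to stand apart when its distance to the nearest of the other 3 exceeded the range of those 3, both on the log2(value + 1) scale.

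Sequence upstream of growing genes is shown for Pcp4 and Gng13, Purkinje cell genes whose ratios moved alike, to show whether they share the core site AGGTCA, the letters bound by many nuclear receptors, among them Rora of Purkinje cells. The runs come from RefSeq windows on GRCm38.p6 and cover 250 to 51 bases before the first listed start (Pcp4 at chr16:96467356-96467555 and Gng13 at chr17:25716922-25717121, both plus strand). Capitals mark the core site on either strand, where TGACCT is its complement.
Pcp4: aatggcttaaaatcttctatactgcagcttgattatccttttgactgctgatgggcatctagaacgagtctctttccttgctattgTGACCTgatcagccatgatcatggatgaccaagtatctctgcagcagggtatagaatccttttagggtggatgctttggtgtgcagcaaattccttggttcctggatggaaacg
Gng13: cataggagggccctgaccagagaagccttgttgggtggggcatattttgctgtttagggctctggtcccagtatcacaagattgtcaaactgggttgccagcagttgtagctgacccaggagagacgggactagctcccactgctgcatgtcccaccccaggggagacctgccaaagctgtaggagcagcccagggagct
Pcp4 holds 1 core site, 164 bases before its start, and the Gng13 run holds none. Over the 5383 compared genes with a RefSeq window of 300 bases, 590 (10.96%) held the core site. Only 12 of the 17 growing genes had a window, under 80%, so a share for the class is void. In those 12 the letters occurred in Homer3, Pcp4 and Tuba8.

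The early and stable class held Pcp2, the Purkinje cell protein that acts on G proteins (chr8:3623371-3625545, minus strand). Pcp2 was 1661 in wild type and 1241 in 92Q at 12 weeks, and 1324 and 871 at 29 weeks, so 92Q stood at 74.7% and then 65.8% of wild type. The log2 ratio went from -0.42 to -0.60, a change of -0.18 that stayed short of 1.2-fold. Aldoc, the glycolytic enzyme aldolase C of Purkinje stripes and astrocytes, was 1284 and 1055, then 1227 and 924 (-0.28 and -0.41). Cck, a neuropeptide precursor, was 147 and 112, then 117 and 81 (-0.39 and -0.53). Each of these 3 was lower in 92Q at both ages and lowest in 92Q at 29 weeks, like the growing genes but with a smaller step.

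In all, 15 stable genes were lower in 92Q and 3 were higher. Plcb3, a phospholipase C of the mGluR1 chain, was 15 and 12, then 15 and 10. Rmdn3, a protein that links mitochondria to the endoplasmic reticulum, was 64 and 52, then 54 and 40. Xist had the strongest stable difference, at 45.5% and then 39.7% of wild type, and moves with the Y-linked genes as given above. Among the other lower members, Lhx1os and Cox6b2 were nearer to wild type at 29 than at 12 weeks. Lhx1os lies beside Lhx1 on the opposite strand, and their annotated positions do not overlap. Whether reads of the pair were shared was not tested. The 3 higher genes were Sncg (10 and 13, then 15 and 21), Pde10a (17 and 21, then 14 and 19) and Csf2ra (13 and 16, then 13 and 17). None of these 3 was firm under rounding.

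Late lower genes differed by less than 1.2-fold at 12 weeks, and 59 of the 86 by less than 1.1-fold. They stood at a median of 74.4% of wild type at 29 weeks. The 29-week 92Q column stood apart on the low side in 76 of the 86 genes, and within 92Q the median age ratio was -0.41 against -0.04 in wild type. Of the class 11 genes are on the Purkinje list and 10 on the calcium list, 19 being on one or both. Of all 7066 compared genes 73 are on one or both, and 53 of the 86 late lower genes are on no list. Itpr1, the inositol trisphosphate receptor of internal calcium stores (chr6:108213096-108551109, plus strand), was 318 and 290 at 12 weeks and 313 and 190 at 29 weeks. Its log2 ratio was -0.13, then -0.72. Wild type and young 92Q were close together and only old 92Q was low, which is the plain form of a late difference.

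Some calcium pumps and channels were late and lower too, but not all were level at 12 weeks. The 12-week log2 ratio was -0.22 for Atp2a3 and -0.26, just under the limit, for Car8. Atp2a3, a calcium pump of the endoplasmic reticulum, was 76 and 65, then 70 and 42 (change -0.50). Cacna1g, a T-type calcium channel, was 53 and 48, then 52 and 34 (-0.46). Atp2b2, a calcium pump of the plasma membrane, was 159 and 155, then 162 and 129 (-0.29). The related pump Atp2a2 fell just outside the fold (241 and 217, then 232 and 174, change -0.26). Car8, which tempers the inositol trisphosphate receptor, was 307 and 257, then 263 and 167 (-0.40).

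Synaptic scaffolds and a receptor were also late. Shank2, a postsynaptic scaffold, was 54 and 52, then 58 and 36 (change -0.62), and Shank1 was 95 and 99, then 103 and 81 (-0.40). In both the 3 other conditions lay within a narrow band and old 92Q lay below it. Grm4, a metabotropic glutamate receptor of granule cells, was 191 and 187, then 143 and 100 (-0.48). Grm4 was the single late gene among 32 compared granule cell markers, while 2.94% of all genes were late. It was lower in old than in young wild type too. Rgs8, a regulator of G protein signalling in Purkinje cells, was 294 and 245, then 262 and 154; its 12-week log2 ratio of -0.26 was just under the limit, and its class was not firm.

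Transcription factors in the class included Lhx1 (22 and 22, then 26 and 18, change -0.51), a homeodomain factor of Purkinje cells, and Nab2 (29 and 28, then 28 and 18, -0.56), a corepressor of Egr factors. Dusp5, a phosphatase of the MAP kinase Erk, was 88 and 76, then 89 and 46. At -0.73 it was the third largest negative change of the class after Dusp1 and Clstn2. Clstn2, a synaptic cadherin relative, was 17 and 17, then 21 and 12 (-0.76), with a low column in 92Q and the highest in wild type, both at 29 weeks.

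**Figure D2:**
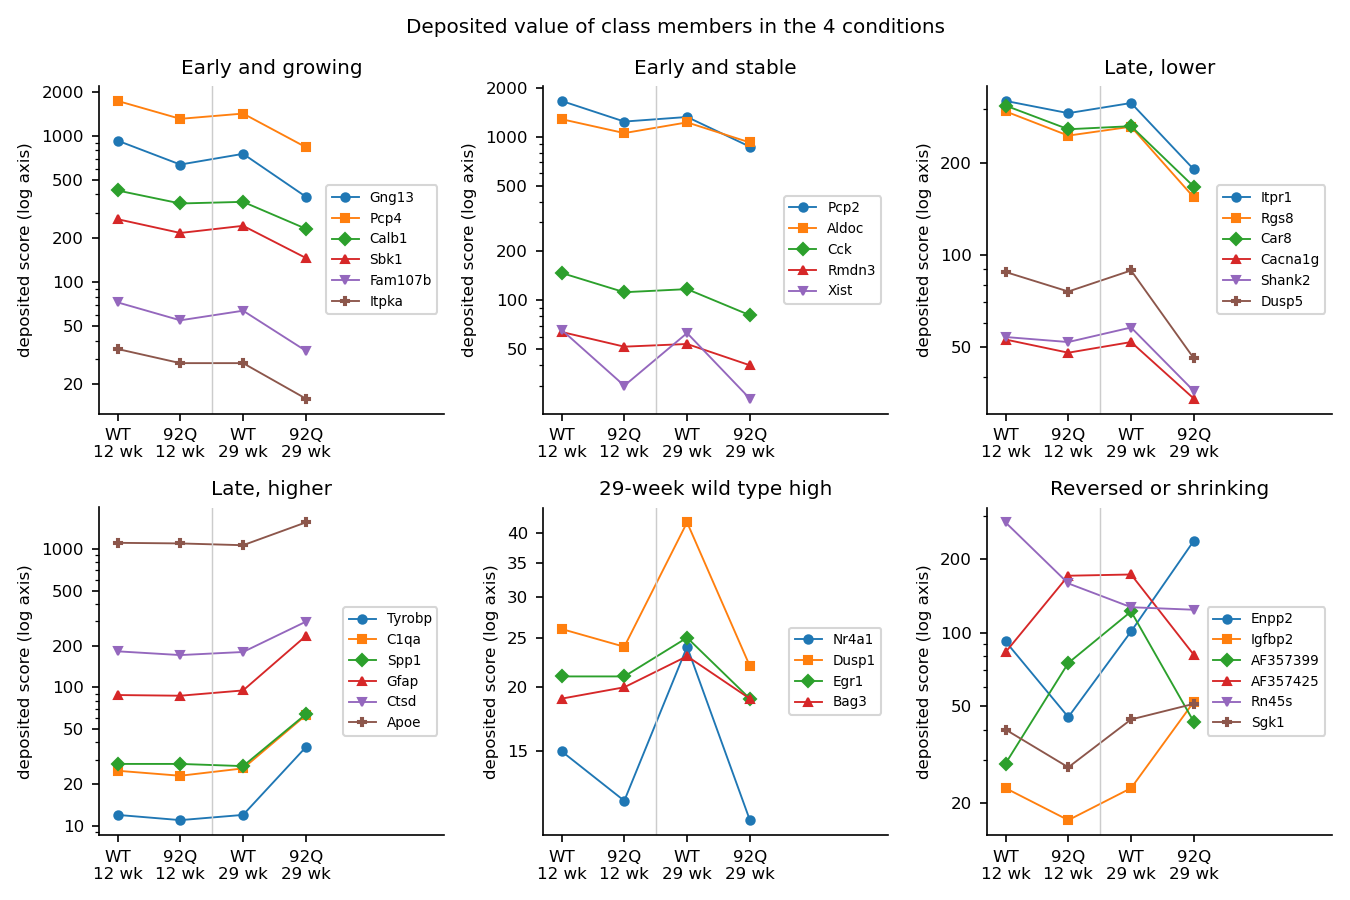
Deposited score on a log axis in the 4 conditions, in the order wild type and 92Q at 12 weeks, then wild type and 92Q at 29 weeks, for 4 to 6 genes of each pattern; lines only join the values of a gene. Growing genes such as Gng13 (935, 641, 759, 386) step down within each age, late genes such as Itpr1 or Tyrobp leave the other 3 columns at 29 weeks in 92Q alone, and Nr4a1, Dusp1, Egr1 and Bag3 peak in 29-week wild type.

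The late lower genes were not all flat at 12 weeks: 59 of the 86 were lower, 17 higher and 10 equal, with a median log2 ratio of -0.07. The wider set of genes lower at 29 weeks also holds stable and growing genes, which are lower at 12 weeks by definition. The same is fixed for its genes that passed at 29 weeks alone without a change of 1.2-fold. Its 2 reversed genes are higher at 12 weeks by definition. Of the 197 genes lower by 1.2-fold at 29 weeks, 168 (85.3%) were also lower at 12 weeks by any amount, 10 were equal and 19 were higher, while 37.3% of all compared genes were lower at 12 weeks. The median 12-week log2 ratio of the 197 was -0.15. The 2 ages share no column, so this sign was measured in other animals. Restricted to transcripts of at least 2000 bases, the share was 84.3% against 29.4% of all such genes. At 1.5-fold, 35 of 38 lower genes had the same sign at 12 weeks (92.1%).

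The genes higher at 29 weeks leaned less to one side. Of 174 genes higher by 1.2-fold at 29 weeks, 67 (38.5%) were higher at 12 weeks, 47 were equal and 60 were lower, against 32.4% higher among all genes, and their median 12-week ratio was 0.00. At 1.5-fold only 2 of 16 had the same sign at 12 weeks. In transcripts of at least 2000 bases the share was 51.3% against 37.5%. The share of higher genes with the same sign was thus near that of all genes over all lengths and above it in the longer transcripts.

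The largest changes among late higher genes were mostly in microglial and complement genes. Of the 122 genes 14 are on that list, as are 19 of all 7066 compared genes, and 83 are on no list. Tyrobp, the adaptor of microglial activating receptors (chr7:30413760-30417585, plus strand), was 12 and 11 at 12 weeks and 12 and 37 at 29 weeks, so 92Q stood at 308% of wild type. Its change of 1.66 was the largest of the class. C1qa, a chain of the first complement component (chr4:136895917-136898803, minus strand), was 25 and 23, then 26 and 63 (change 1.36). The other chains gave the same picture, with C1qb at 28 and 28, then 34 and 65 (0.92), and C1qc at 25 and 25, then 28 and 61, where 92Q was 218% of wild type. In each of these genes 3 columns lay close together and old 92Q lay above them. Fcer1g, an adaptor of Fc receptors, was 13 and 14, then 15 and 32 (0.94), and Csf1r, the growth factor receptor that microglia need, was 11 and 11, then 12 and 19 (0.62). Spp1, the secreted protein osteopontin, was 28 and 28, then 27 and 64 (1.22).

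All 19 compared genes of the microglia and complement list were higher at 29 weeks, and 14 were late, against 48.8% higher and 2.94% late over all genes; in 15 the column that stood apart was old 92Q. The list's median log2 ratio was 0.00 at 12 weeks and 0.69 at 29 weeks. Another 11 list genes were under the minimum, since young or wild-type columns held low values. Among them Cd68, a lysosomal protein of phagocytes, was listed at 5, 6, 6 and 20 in the order of conditions above, Trem2, the receptor that signals through Tyrobp, at 4, 4, 5 and 13, and Lyz2, lysozyme, at 3, 4, 3 and 22. Every gene in the table reached 10 in at least 1 column, and these 3 did so in old 92Q alone, as did 9 of the 11. That old 92Q was their highest column is thus fixed by how the table was made and supports nothing. Without transcripts under 2000 bases the list's median change was 0.32 in place of 0.69.

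Gfap, the filament protein of astrocytes (chr11:102887336-102900912, minus strand), was 88 and 87, then 95 and 235. Its ratio was near 0 at 12 weeks, its change was 1.31, and its class was firm. The other compared genes of the reactive astrocyte list did not reach the fold. Vim, another filament gene, was 126 and 132, then 116 and 136. H2-D1, a class I antigen gene, was 41 and 39, then 40 and 39. Another 2 list genes were under the minimum. Serpina3n was listed at 3, 4, 4 and 21 in the order of conditions above, and H2-K1 at 9, 10, 13 and 16. The 29-week log2 ratio of H2-K1 was 0.28, past the fold, and its change was 0.14. Serpina3n reached 10 in old 92Q alone, so its high column supports nothing. Markers of resting astrocytes and Bergmann glia had a median change of 0.05 over 37 genes, with Apoe, Clu and Fabp7 late and higher and Gdf10 late and lower. Apoe, the lipid carrier of glia, was 1105 and 1094, then 1062 and 1552 (change 0.56), and Gdf10, a growth factor of Bergmann glia, was 123 and 125, then 130 and 106 (-0.32).

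Lysosomal genes overlapped with the microglial ones. Ctsd, the aspartic protease cathepsin D, was 182 and 171, then 180 and 298 (change 0.81). Ctss, a cathepsin of phagocytes, was 21 and 22, then 30 and 55 (0.79). Of 34 compared lysosomal genes 7 were late and higher, 33 were above wild type at 29 weeks by any amount, and the median went from 0.00 to 0.13. Over all genes 1.73% were late and higher and 48.8% were above wild type at 29 weeks. Ctss was also somewhat higher in old than in young wild type.

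Myelin genes gained on wild type by smaller steps. Of 35 compared genes of oligodendrocytes and myelin, 34 had a positive change, 11 were late and higher, and the median ratio went from -0.05 to 0.15. Over all genes 50.8% had a positive change and 1.73% were late and higher. Mag, a myelin adhesion protein, was 96 and 96, then 95 and 118 (change 0.31). Cnp, a myelin enzyme, was 183 and 177, then 168 and 205 (0.33). Mag and Cnp were set apart by a high 29-week 92Q column. Mog, a surface protein of myelin, was 56 and 53, then 46 and 60 (0.45), and Gsn, the actin-severing protein gelsolin, was 26 and 25, then 20 and 27 (0.47). For Mog and Gsn the column that stood apart was wild type at 29 weeks, on the low side, so these are not increases in 92Q alone. Markers of oligodendrocyte precursors had a median change of 0.08 over 7 genes.

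Other late higher genes included Mt2, a metallothionein (492 and 453, then 431 and 586, change 0.56), Cirbp, a cold-induced RNA-binding protein (37 and 38, then 37 and 55, 0.52), and Cd9, a tetraspanin (27 and 25, then 24 and 35, 0.63). Hemoglobin beta transcripts were in the class as well: Hbb-b1,Hbb-bs was 110 and 109, then 106 and 147, and Hbb-b2 was 16 and 16, then 15 and 22. These copies are nearly identical and their reads may be shared. Hemoglobin transcripts thus moved with old 92Q, and the part of blood in other late genes was not tested. Igf2, a growth factor made by choroid plexus and meninges, was 51 and 44, then 49 and 77 (0.85), in step with Ttr.

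A set of immediate early genes owed most of their change to wild type. Immediate early genes are switched on within minutes of neuronal activity or stress. Dusp1, a phosphatase that turns off MAP kinases (chr17:26505590-26562128, minus strand), was 26 and 24 at 12 weeks and 42 and 22 at 29 weeks. Nr4a1, an orphan nuclear receptor (chr15:101254269-101274795, plus strand), was 15 and 12, then 24 and 11. Egr1, a zinc finger factor, was 21 and 21, then 25 and 19, with an age ratio of 0.24 in wild type and -0.14 in 92Q. In all 3 the old wild-type column was the high one, while old 92Q was near the 12-week values, so by level they differ from Itpr1 or Gng13 although their class is late or growing. The class of Dusp1 was firm, and those of Nr4a1 and Egr1 were not.

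Other members were under the minimum and had the same peak. Fos, the AP-1 subunit, was listed at 13, 8, 27 and 10 in the order of conditions above, and Nr4a2, a relative of Nr4a1, at 11, 8, 18 and 8. Over 17 compared genes of this list, the median age ratio was 0.00 in 92Q and 0.12 in wild type, and the median change was -0.13; with a minimum value of 20 it was 0.00, with fewer members left. Dusp5 differed from the rest in having its low column in old 92Q, and Sgk1, a stress-induced kinase, was 40 and 28, then 44 and 51 (change 0.71), set apart by a low 12-week 92Q column. Clock genes were mostly higher at 29 than at 12 weeks in both genotypes, with a median age ratio of 0.19 in 92Q and 0.22 in wild type over 21 genes. Per2, a repressor of the clock, was 10 and 10, then 22 and 16. The sources used here do not give the hour of dissection, and its part was not tested.

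For Dusp1 the upstream run is shown because it holds the full cAMP response element TGACGTCA, the letters bound by Creb in many activity-induced genes. It covers chr17:26508523-26508722 on the minus strand of GRCm38.p6, 250 to 51 bases before the RefSeq start, with the element in capitals.
Dusp1: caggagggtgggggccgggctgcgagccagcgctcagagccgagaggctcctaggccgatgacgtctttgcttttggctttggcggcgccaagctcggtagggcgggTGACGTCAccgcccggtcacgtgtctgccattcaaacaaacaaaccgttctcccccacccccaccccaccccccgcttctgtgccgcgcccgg
The element begins 143 bases before the start and reads the same on both strands. It was found in 194 of 5383 windows (3.6%), and in 3 of the 14 immediate early genes with a window, namely Dusp1, Plk2 and Ppp1r15a. Plk2 (10 and 10, then 11 and 10) and Ppp1r15a (14 and 13, then 15 and 14) held the same letters without the peak of Dusp1, and the Nr4a1 window had the peak but not the letters.

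Across all 490 genes with a change of 1.2-fold or more, old 92Q was the column apart in 210, high in 111 and low in 99. Wild type at 29 weeks stood apart in 68, low in 59 and high in 9. The 12-week columns did so less often: wild type was high in 24 and low in 8, and 92Q was low in 15 and high in 1. In 164 genes no single column did. The sides were uneven. Of the 139 negative changes 99 rested on a low 92Q value at 29 weeks (71.2%), whereas 111 of the 351 positive changes rested on a high one (31.6%) and 142 on more than one column.

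**Figure D3:**
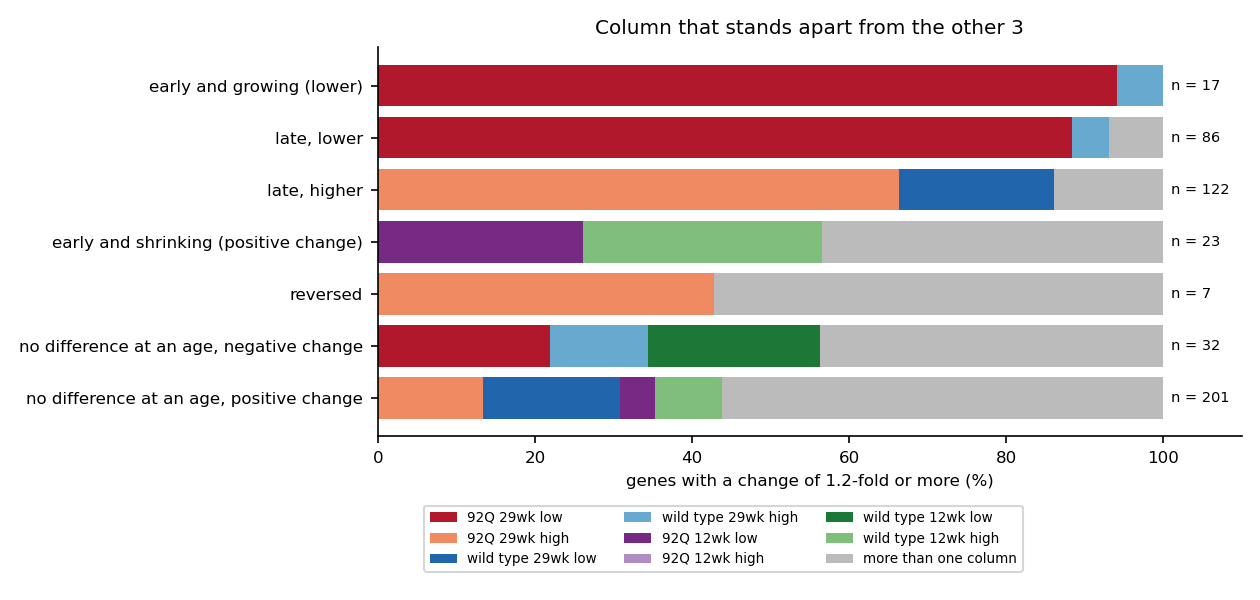
Share of genes (horizontal axis, in percent) whose change rests on each column, by class, with the number of genes at the right. Old 92Q on the low side makes up 16 of 17 growing and 76 of 86 late lower genes, old 92Q on the high side 81 of 122 late higher genes, and several columns together most of the 201 positive changes of genes that differ at neither age.

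The early and shrinking genes were different at 12 weeks and nearer to wild type at 29 weeks. Of the 25 genes 23 had been lower and 2 higher in 92Q at 12 weeks. Nrgn, a calmodulin-binding protein of forebrain neurons, was 69 and 49, then 78 and 84 (change 0.59). Tcf7l2, a factor strong in thalamus, was 16 and 11, then 19 and 19 (0.50), and Sst, the peptide somatostatin, was 59 and 48, then 73 and 75 (0.33). For Nrgn and Tcf7l2 the low column was 92Q at 12 weeks. Nrgn and Tcf7l2 are on the list of markers of other brain regions, and Sst is not. That list had 8 compared genes, 4 with a positive and 4 with a negative change, and its median ratio went from -0.21 to 0.03. The negative changes ran from -0.15 for Penk to -0.01 for Ppp1r1b.

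Rn45s, the precursor of ribosomal RNA, was 283 and 159, then 127 and 124, with wild type at 12 weeks as the high column. Ptgds, an enzyme of meninges and choroid plexus, was 1551 and 1259, then 1349 and 1499; its change of 0.45 became -0.06 after quantile normalization, so its direction depends on scaling. Mgp, a matrix protein of vessels and meninges, was 39 and 29, then 43 and 41. Many of the rest were short transcripts, such as Ndufb4 of respiratory complex I (22 and 18, then 19 and 21) and Mrps24 of the mitochondrial ribosome (23 and 19, then 18 and 21). Of the 24 shrinking genes with a known transcript length, 11 were under 1000 bases. Of all 7031 compared genes with a known length, 22 were under 500 bases and 322 were 500 to 1000.

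Reversal of sign was seen in 7 genes. Enpp2, the secreted enzyme autotaxin (chr15:54838901-54952892, minus strand), was 92 and 45, then 101 and 238, a change of 2.24. Igfbp2, which binds insulin-like growth factors (chr1:72824503-72852474, plus strand), was 23 and 17, then 23 and 52 (1.56). Both had low young and high old 92Q values, and so had Ttr. Enpp2 is on the lists of both myelin and choroid plexus genes. Among 13 measured choroid plexus genes, 5 were compared and 8 were under the minimum, and the compared ones went from a median of -0.08 to 0.32. Of the 8 under the minimum, 6 were in the table through old 92Q alone, so their high column supports nothing. Ttr, the choroid plexus marker, moved with Enpp2 and Igfbp2, and its part was not tested.

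Among the compared genes the largest negative changes belonged to 2 short noncoding RNAs. AF357399 (chr7:28351508-28351632, plus strand) was 29 and 75, then 122 and 43, and AF357425 (chr12:109636012-109636084, plus strand) was 83 and 171, then 173 and 81. Their annotated lengths are 125 and 73 bases, and no single column stood apart in either. Other short RNAs under the minimum were as erratic: AF357426 was listed at 309, 0, 321 and 100, and Rmrp, the RNA of a processing ribonuclease, at 40, 7, 1 and 1.

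Transcript length moved with the change over all genes. In the 322 genes with a longest transcript of 500 to 1000 bases the median change was 0.16; it was 0.10 in 1311 genes of 1000 to 2000 bases, 0.02 in 2731 of 2000 to 4000, 0.00 in 2209 of 4000 to 8000 and -0.04 in 436 of 8000 or more. The trend lay in wild type. Its median age ratio went from -0.15 in transcripts of 500 to 1000 bases to 0.09 in those of 8000 or more, while within 92Q the medians were 0.00 and 0.04. Across 7031 genes with a known length, the Spearman correlation of length was -0.42 with the change, 0.50 with the wild-type age ratio and 0.06 with the 92Q age ratio. These are descriptions across genes, which share their columns and are not independent.

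**Figure D4:**
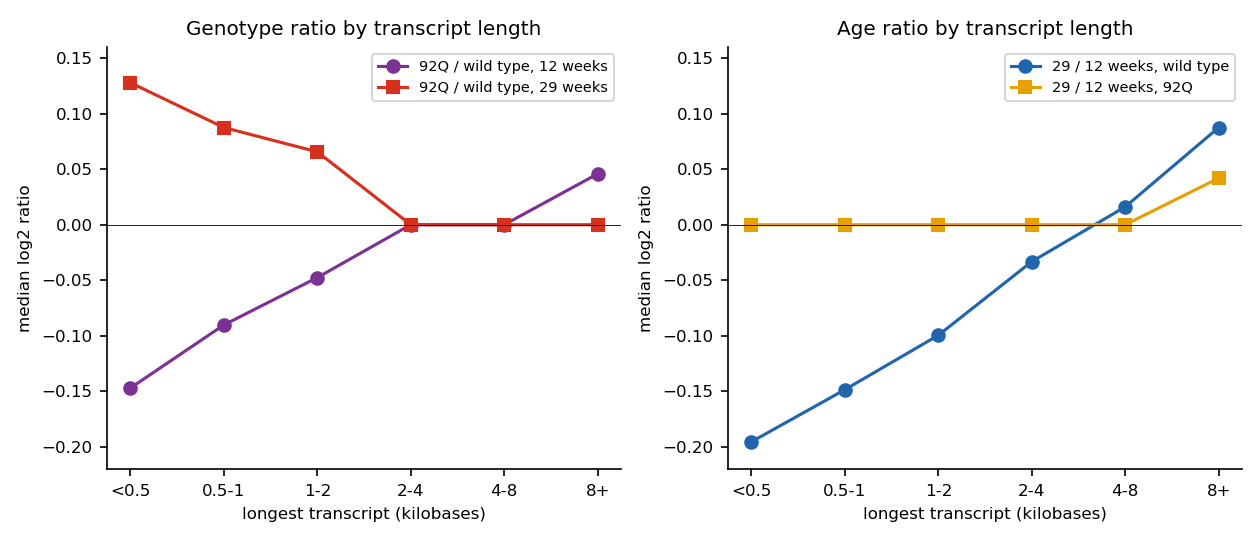
Median log2 ratio by length of the longest transcript in kilobases, for 92Q against wild type at each age (left) and for 29 against 12 weeks in each genotype (right). The left curves cross, short transcripts being lower in 92Q at 12 weeks and higher at 29 weeks, and on the right the wild-type curve climbs from -0.20 to 0.09 while that of 92Q stays between 0 and 0.04.

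Many small positive changes belong here. Of the 233 genes that differed at neither age but had a change of 1.2-fold, 201 were positive. The cut-offs leave such a gene no other pattern than lower in 92Q at 12 weeks and higher at 29 weeks, so that pattern is no finding. Of the 201 genes, 134 had transcripts under 2000 bases. Of all 7066 compared genes, 5376 had transcripts of at least 2000 bases. Nuclear genes of the respiratory chain, had a median length of 918 bases. Of 69 such genes 63 were lower at 12 weeks, against 37.3% of all genes, and 59 were higher at 29 weeks, against 48.8%. Their median went from -0.11 to 0.10. Their age ratio was 0.00 in 92Q and -0.21 in wild type. Set against genes of like length the median change of the group was 0.08 in place of 0.20. Atp5e, a subunit of ATP synthase, was 135 and 114, then 101 and 125 (change 0.55), with the highest value in young wild type and the lowest in old wild type. Genes with Mrpl or Mrps symbols (59) and with Rpl or Rps symbols (30), chosen after their values were seen, each had a median change of 0.11. All genes of 1000 to 2000 bases, where both median lengths lie, had 0.10. At 12 weeks 43 of the 59 and 17 of the 30 were lower. The age ratio was 0.00 in 92Q and -0.13 in wild type for the Mrpl and Mrps set. It was 0.08 and -0.07 for the Rpl and Rps set. Both sets were picked by the start of the symbol, so they can hold genes other than ribosomal proteins. How far RNA quality or library preparation enters was not tested.

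The classes that carry the Purkinje and microglial genes differ in length. Median transcript length was 3576 bases in the growing class, 4363 in the late lower class and 1716 in the late higher class. Of 120 late higher genes with a known length, 26 were under 1000 bases. Over all 7031 such genes, 22 were under 500 bases and 322 were 500 to 1000. Set against genes of like length, the Purkinje list had a median change of -0.29 (as deposited -0.24) and the microglia list one of 0.62 (as deposited 0.69). Centred in this way, all 17 growing genes and 160 of the 208 late genes remained in their class, but 8 of the 25 shrinking genes did.

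Over whole lists the Purkinje cell markers moved farthest down, but the lists were chosen with earlier results of these data known. That rank is a description and supports nothing further. Of 45 genes named on that list 39 were compared, and 31 were lower in 92Q at 12 weeks and 34 at 29 weeks, against 37.3% and 26.6% of all genes, with a median that went from -0.18 to -0.44. There were 4 stable, 7 growing and 11 late genes, 7 at a single age without such a change, and 10 at neither age; over all genes these shares were as given above. The list was not uniform. Pcp4l1, a relative of Pcp4, went the other way (86 and 85, then 92 and 110), and the neurofilament genes Nefl (134 and 148, then 154 and 168), Nefm (56 and 66, then 62 and 76) and Nefh (62 and 69, then 66 and 73) were higher in 92Q at both ages. Pvalb, the calcium buffer parvalbumin, was 878 and 788, then 734 and 580 (change -0.18), a smaller step than Calb1.

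Genes of calcium and mGluR1 signalling went from a median of -0.06 to -0.27 over 42 genes, with 1 stable, 5 growing and 10 late. Of the 42 genes 21 differed at neither age, against 94.2% of all genes. The list of G proteins and their regulators had 28 compared genes and a median change of 0.06. Of these, Gng13 was growing and Rgs8 late, against 0.241% growing and 2.94% late over all genes, and 25 differed at neither age. The voltage-gated channels had 5 late genes of 42, against 2.94% late over all genes. Among the 5, Kcnip4 (97 and 98, then 93 and 71) was lower and Kcnk9 (14 and 15, then 16 and 23) higher. Granule cell markers had a median change of -0.14, with 24 of 32 negative against 36.0% of all genes, and markers of interneurons and unipolar brush cells one of -0.16 over 13 genes. Neurotransmitter receptors (29 genes, -0.11) and synaptic genes (42 genes, -0.10) also leaned to negative change, most of them without reaching the fold.

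Several genes of the Purkinje groups are themselves ataxia genes. Of 35 compared genes of hereditary ataxias, 8 were in a growing or late class and lower, which held for 1.46% of all genes. Among the 8 were Itpr1, Cacna1g and Car8, all late. The 29-week ratios of these 3 were -0.72, -0.60 and -0.65, while the list's median at 29 weeks was -0.06. All 24 compared subunits of SAGA and TFIID differed at neither age, as did 94.2% of all genes, with a median change of 0.00. Genes of cholesterol synthesis (18, median change 0.00), heat shock (21, 0.10) and the unfolded protein response (29, 0.09) had small medians. Endothelial and pericyte markers differed at neither age in all 12 compared genes, a class that holds 94.2% of all genes.

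**Figure D5:**
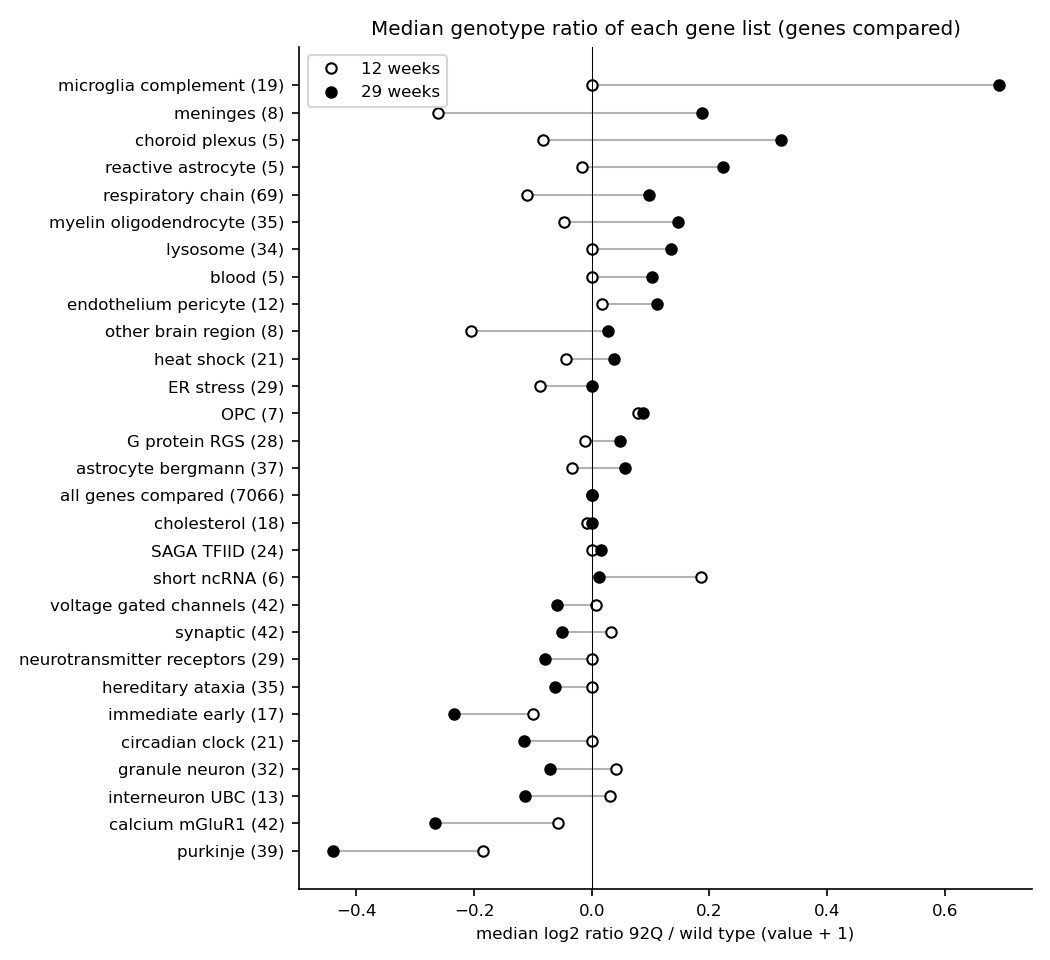
Median log2 ratio of 92Q to wild type for each gene list at 12 weeks (open circles) and 29 weeks (filled circles), with the number of compared genes. The Purkinje list moves from -0.18 to -0.44 and the calcium list from -0.06 to -0.27, the microglia and complement list from 0.00 to 0.69, and all genes stay at 0.

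The authors' deposited table of 99 selected genes matched the full table in every value, and 65 of its genes were compared here. All 17 growing genes were in the authors' deposited table, with 8 stable, 38 late, 1 shrinking and 1 single-age gene besides. Since that table was chosen on these samples, it is not independent evidence.

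Limits of value and fold decide membership for some genes. A lowest value of exactly 10 was found in 390 compared genes, and 362 of the genes left out had a lowest value of 9. Tmem98 (11 and 10, then 10 and 15) was just inside and Lgals3bp (9 and 9, then 12 and 21) just outside. At the fold, Id3 was just inside at 0.26 (17 and 17, then 19 and 23), and Cerk was just outside at -0.26 (98 and 89, then 90 and 68).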

How the data were processed

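Total RNA was isolated with TRIzol and RNeasy columns, and TruSeq libraries were read as 50-base single ends, per the labels' protocols. The submitters' processing notes name Bowtie 0.12.7, SAMtools 0.1.12a, Cuffdiff 1.3.0 and mm10, without roles. The deposited values are a whole-number score per gene and condition, combined by the authors over 3 libraries; the sources used here do not give the normalization, annotation or unit. Depth is unknown, and no interval was computed.

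Of 7684 rows, 17 named by a number were left out. Ratios used a pseudocount of 1, which understates changes of low genes, and a minimum of 10. No test was made, since the tables hold 1 value per condition. Transcript lengths and gene positions came from GENCODE M21, which matched 99.5% of compared genes. The 29 lists, the classes and the naming rule were chosen with earlier results of these data known. Genes were named as the 10 largest changes per class and direction, 5 per list, 3 on either side of each limit, and checks of the pools; further list or class members were chosen after their values were seen. Classification was tested on simulated data with known classes. Alternatives covered pseudocount, minimum, scaling, fold, lists left out and transcript length. Python 3.11.15, numpy 2.4.6 and pandas 2.3.3 were used.
Results for some genes are not reported here.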

Additional observations from a re-analysis of the deposited data

Results flagged for a closer look

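In 7 genes the difference between genotypes had opposite signs at the 2 ages, each past 1.2-fold, over condition values that stand for different animals. The difference between ages was not tested, since each condition has 1 deposited value. The log2 ratios turned from negative at 12 weeks to positive at 29 weeks in Enpp2 (change 2.24), Igfbp2 (1.56), Tmem176b (0.77), Rplp1 (0.69) and Fmod (0.60). They turned from positive to negative in AF357399 (-2.82) and AF357425 (-2.12). Tmem176b, a membrane protein gene, was 24 and 19 in wild type and 92Q at 12 weeks, and 24 and 33 at 29 weeks. Rplp1, a ribosomal protein gene with near-identical copies that may share reads, was 76 and 59, then 53 and 67. Fmod, a matrix protein of meninges, was 16 and 13, then 15 and 19. Moving each value by 0.5 left 5 of the 7 in this class.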

How the results depend on the processing

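Counts at 1.2-fold depend on settings. The values in order of positive change (351), negative change (139), growing (17), stable (18), late higher (122), late lower (86), shrinking (25), reversed (7), old 92Q apart (210) and old wild type apart (68) are given where they moved over 1.5-fold. At a limit of 5 to 4 they were 195, 82, 6, 5, 66, 54 and 9, then 129 and 40 for the columns apart; at 1.5 they were 29, 9, 0, 1, 15, 6, 1, 3, 26 and 2. A pseudocount of 5 gave 218 positive, 10 stable, 76 late higher, 56 late lower, 12 shrinking and 38 with old wild type apart. A minimum of 5 gave 28 growing, 198 late higher, 50 shrinking, 17 reversed and 105 with old wild type apart, and no minimum gave 33, 201, 55, 24 and 107. A minimum of 20 gave 173 positive, 87 negative, 8 stable, 53 late higher, 9 shrinking, 4 reversed, 129 with old 92Q apart and 25 with old wild type apart. Upper quartile scaling gave 212 negative changes, and median ratio scaling left 44 genes with old wild type apart. Without the sex-linked, choroid plexus, meninges, blood and short RNA lists 2 reversed genes remained. Of 2 alternatives chosen after seeing the data, dropping transcripts under 2000 bases gave 116 positive, 10 stable, 47 late higher, 5 shrinking, 2 reversed, 23 with old wild type apart and a microglia median of 0.32, and centring by length gave 184 positive, 79 late higher and 12 shrinking. Fewer genes entered under a higher minimum or length bound; for the other settings the cause was not tested. Signs turned for the median change of other brain regions (-0.0172 with a minimum of 5 or none, -0.0121 with 20), immediate early genes (0.0021 with 20), short RNAs (0.0849 with no minimum, 0.0301 without transcripts under 2000 bases) and for Ptgds (-0.0636 after quantile normalization). The growing genes kept their class in 17 of 17 with a pseudocount of 0.1 and median ratio scaling, 14 with a pseudocount of 5, 12 with upper quartile scaling and 11 with quantile normalization. No paired analysis was possible because each condition has 1 deposited value, and for the same reason no library could be left out.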
